A study of Gallus gallus with 54 samples.

Results

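Final maturation of the theca layer in untreated laying hens was described here by setting the theca cells (TCs) of the F1 follicle against those of the F5 follicle. The members are the RNA-Seq libraries whose labels name theca, the nc (NC) treatment and stage F1 or F5, which are 6 of the 54 libraries of the series, 3 of F1 and 3 of F5. In the hierarchy of large yellow follicles, F1 is the next to ovulate and F5 is near the time of selection. The series sampled granulosa cells (GCs) and TCs at 3 stages (6 mm, F5 and F1) in NC hens and in hens given an androgen agonist or an antiandrogen. All hens were White Leghorns of 35 to 40 weeks of age, and the NC group received only water.

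Beside the NC TCs, the same stages of TCs were taken from hens fed 100 mg of the androgen agonist mestanolone (mes100) for 4 days, with follicles collected 1 day after the drug was stopped, and GCs were taken from the NC hens themselves. In mes100 hens surplus follicles beyond the usual hierarchy were also labelled F1, so an F1 library of that group may come from a follicle of another age than in NC. By the study's sample table the F1 and F5 TC libraries with the same replicate number came from the same hen, while the 3 NC GC libraries of F1 came from 2 hens. A TC library holds the peeled layer with all of its cell types, so fewer cells of a type and less RNA per cell cannot be told apart in any value below.

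The theca layer surrounds the granulosa layer and carries the vessels, smooth muscle, fibroblasts and steroid-making cells of the follicle wall. In the hen, progesterone comes mainly from the GCs of the largest follicles, androgen from theca cells that express the 17-hydroxylase CYP17A1, and estrogen from theca cells that express the aromatase CYP19A1. At ovulation the wall opens along the stigma, a strip with few vessels, after a surge of luteinizing hormone (LH).

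The 6 libraries held 42799139 to 58631416 counts each, and 0.0863% to 0.129% of these lay in rows without a gene. Fibroblast markers and smooth muscle markers were high in every TC library, with summed levels of 5389 to 6588 FPKM in F1 and 5373 to 7130 FPKM in F5 for 6 fibroblast genes, against at most 80.1 FPKM in any NC GC library of these stages (FPKM, fragments per kilobase of transcript scaled to the fragments of the library, is a level per length). This is the makeup that the theca label calls for. Oocyte markers summed to under 1 FPKM in each library, with DAZL and DDX4 under 0.1 FPKM in all 6, and the nerve marker DBH was also under 0.1 FPKM in all 6.

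Granulosa RNA was present in 3 of the 6 libraries. INHA, the inhibin alpha subunit made by GCs, read 353, 0.337 and 1.17 FPKM in the 3 F1 libraries and 1.52, 288 and 601 FPKM in the 3 F5 libraries. As a share of the mean of the NC GCs at the same stage these are 23.5%, 0.0225% and 0.0777% in F1, and 0.0839%, 16.0% and 33.3% in F5. The egg coat gene ZPD, which GCs also make and which stands under the symbol UMOD in the files, gave 39.2%, 0.0101% and 0.108% in F1 and 0.557%, 14.8% and 25.4% in F5. Thus, by INHA and ZPD, F1 replicate 1 and F5 replicates 2 and 3 carried such RNA, and F1 replicates 2 and 3 and F5 replicate 1 carried little. All 7 granulosa markers together summed to 8790, 1478 and 1286 FPKM in F1 and to 996, 2288 and 3978 FPKM in F5. Most of each sum was ZP3, with 6743, 1234 and 1058 FPKM in F1 and 785, 1553 and 2721 FPKM in F5. FOXL2 was also high in every library, with 315, 226 and 210 FPKM in F1 and 188, 274 and 340 FPKM in F5. AMH did not follow the split, with 8.55, 9.97 and 7.27 FPKM in F1 and 10.2, 5.57 and 6.80 FPKM in F5. The 6 mes100 libraries of these stages stood at 0.0106% to 0.134% by INHA. F1 replicate 1 also ranked its genes less like its own group, with Spearman correlations of 0.942 and 0.944 against the other F1 libraries, where those had 0.970 with each other, and the F5 libraries had 0.956 to 0.976 among themselves. For several genes that GCs express, the FPKM that the INHA share of the GC mean comes to is therefore given beside the value below, as a calculation.

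The first question was which genes differed between F1 and F5 TCs of NC hens. A gene was called when its adjusted p by the quasi-likelihood test of edgeR was at most 0.05, its log2 fold change was at least 1.5 in size and its mean reached 1 FPKM at either stage. Of 16138 genes tested, 343 were called, a share of 2.13%, with 183 (1.13%) higher and 160 (0.991%) lower in F1. With no threshold on the fold and the same minimum of 1 FPKM, 1001 genes (6.2%) passed, 544 higher and 457 lower. The steroid-making enzymes CYP17A1 and CYP19A1 and 22 of 38 genes of the cell cycle were called lower in F1, and 6 of 27 genes of leukocytes and macrophages were called higher. The median log2 fold change over all genes tested was 0.02. In all 343 the 3 F1 libraries lay wholly above or below the 3 F5 libraries, which was also true of 33.3% of all genes tested. Among the called genes, 253 had a higher level in TCs than in GCs at the stage where they were high (159 higher and 94 lower in F1), and 90 had a higher level in GCs (24 higher and 66 lower). Exons of 49 of the 343 overlap those of another gene, and reads there cannot be told apart because the counting is not stated to have used strand. Among genes named below that passed the test these are ADH1C (with C4ORF17), COL26A1 (LOC107054787), NPL (MIR1618), CCNE2 (INTS8), SLCO2A1 (LOC107051865), VWF (LOC107054259), DUSP1 (MIR3523), SMTN (SELM) and NOTUM (ASPSCR1), and among the others STAR (ASH2L), NR5A1 (ADGRD2), PECAM1 (MILR1), CD3E (MPZL2) and PTGS2 (PLA2G4A).

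These calls rest on few libraries. With the hen as a block edgeR called 0 genes (smallest adjusted p = 0.0718, with 3539 genes at an unadjusted p under 0.05). All 343 had an unadjusted p under 0.05 there. Their direction was kept too, but it could not turn, as stages that do not overlap differ the same way in every hen. DESeq2 with the same block called 623, of which 333 were among the 343. Leaving out F5 replicate 3 left 0 calls by edgeR (smallest adjusted p = 0.0512, 3008 genes at an unadjusted p under 0.05), leaving out F5 replicate 2 left 1, and leaving out F1 replicate 2, F1 replicate 3 or F5 replicate 1 left 196, 64 and 102. Without F1 replicate 1, the F1 library with granulosa RNA, 318 genes were called. F5 replicates 2 and 3, which also carried such RNA, stayed in that fit. Within the 3 libraries with little granulosa RNA, 2 of F1 and 1 of F5, 33 genes were called and 6 of them were among the 343, a fit in which the lone F5 library is assumed to vary as the F1 libraries do.

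**Figure D1:**
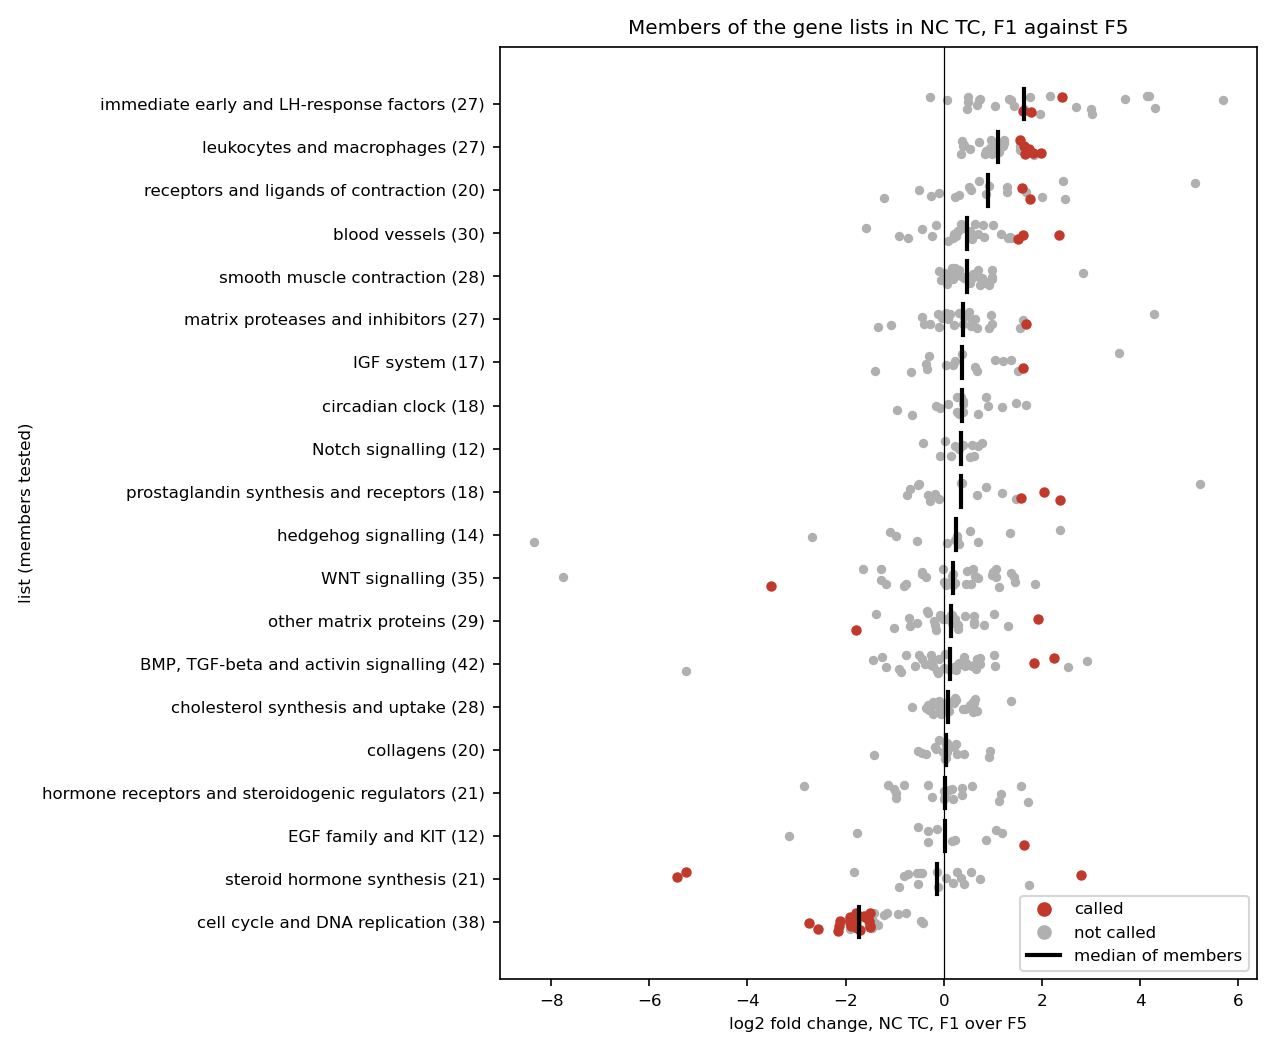
Each point is a gene of the list named at the left and its position on the horizontal axis is the log2 fold change of NC F1 against NC F5 TCs by edgeR, red where the gene was called and grey where it was not, with a line at the median of the list. The cell cycle list lies wholly left of 0 with a median of -1.72, and the list of leukocytes and macrophages lies wholly right of 0 with a median of 1.11.

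The steroid pathway fell at the enzymes that make androgen and estrogen. CYP17A1 (chromosome 6, 23388033 to 23390510 in Gallus_gallus-5.0), which turns progestins into androgens, had 17.3, 26.99 and 14.4 FPKM in F1 TCs, against 927, 954 and 563 FPKM in F5 TCs (log2 fold change -5.26 ± 0.36, SE, adjusted p = 0.0134). CYP19A1 (chromosome 10, 9205795 to 9227433), the aromatase that makes estrogen from androgen, had 2.45, 2.46 and 2.98 FPKM in F1 TCs, against 167, 94.2 and 74.9 FPKM in F5 TCs (-5.43 ± 0.35, adjusted p = 0.0134). For each gene every F1 library lay far below every F5 library, whether or not the library carried granulosa RNA. NC GCs had at most 1.74 FPKM of CYP17A1 and 0.0411 FPKM of CYP19A1 at these stages, so the share of granulosa RNA given above comes to less than 1 FPKM of either gene in any of the 6 libraries. Both calls were lost with the hen as a block (adjusted p = 0.0718 and 0.0810), with log2 fold changes of -5.27 and -5.36, and both were lost without F5 replicate 2 (0.0734 for each) and without F5 replicate 3 (0.0512 for each). Over all alternatives the adjusted p ran from 3.20e-176 to 0.0734 for CYP17A1 and from 2.90e-60 to 0.0810 for CYP19A1. In mes100 TCs, CYP17A1 had 3.64, 6.27 and 6.71 FPKM in F1 and 849, 1143 and 1138 FPKM in F5 (-7.47, adjusted p = 0.00118), and CYP19A1 had 2.82, 0.902 and 38.2 FPKM in F1 and 683, 203 and 301 FPKM in F5 (-4.76, adjusted p = 0.0621).

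The earlier steps of the pathway are shared with GCs, and in F1 their values were high only in the library with granulosa RNA. STAR (chromosome 22, 2288869 to 2291815), which brings cholesterol into the mitochondrion, had 1283, 7.85 and 8.75 FPKM in F1 TCs, against 215, 337 and 322 FPKM in F5 TCs. The F1 libraries with little INHA lay below all F5 libraries, and F1 replicate 1 lay above them. NC GCs of F1 averaged 3794 FPKM of STAR, and the share of granulosa RNA in F1 replicate 1 comes to 892 FPKM by INHA and 1487 FPKM by ZPD, next to its 1283 FPKM. The log2 fold change was 0.75 ± 1.75 (adjusted p = 0.838) with all 6 libraries and -5.06 (adjusted p = 0.0211) without F1 replicate 1, and over all alternatives the adjusted p ran from 0.0211 to 0.915. The mes100 TCs, with little granulosa RNA, had 0.375, 9.65 and 3.48 FPKM of STAR in F1 and 102, 741 and 561 FPKM in F5 (-6.60, adjusted p = 0.0200).

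CYP11A1, which cuts the cholesterol side chain, had 871, 76.5 and 168 FPKM in F1 TCs, against 649.7, 796 and 880.0 FPKM in F5 TCs (-0.90 ± 0.85, adjusted p = 0.577). As for STAR, F1 replicate 1 overlapped the F5 libraries and the other F1 libraries did not. The INHA share of the GC mean comes to 555 FPKM in F1 replicate 1 and to 191 and 398 FPKM in F5 replicates 2 and 3. Without F1 replicate 1 the log2 fold change was -2.59 (adjusted p = 0.0294, in a range of 0.0294 to 0.803 over the alternatives). In mes100 TCs CYP11A1 had 2.33, 13.1 and 9.52 FPKM in F1 and 332, 758 and 702 FPKM in F5 (-6.07, adjusted p = 0.00715). HSD3B1, which makes progesterone from pregnenolone and is listed as HSD3B2 in the files, had 173, 64.2 and 49.1 FPKM in F1 TCs and 58.5, 195 and 296 FPKM in F5 TCs, and the groups overlapped (-0.81 ± 0.71, adjusted p = 0.547). In each stage the libraries with granulosa RNA were the highest for HSD3B1, at 173 FPKM in F1 and at 195 and 296 FPKM in F5, where the INHA share comes to 199 FPKM in F1 and to 78.4 and 164 FPKM in F5.

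HSD17B1, which reduces estrone to estradiol, had 70.5, 256 and 94.2 FPKM in F1 TCs and 153, 138 and 104 FPKM in F5 TCs (0.20 ± 0.47, adjusted p = 0.840). Its groups overlapped, and any difference was within the spread between libraries. AKR1D1, the 5-beta-reductase that inactivates steroids, was the only called member of the list that rose, with 24.4, 43.5 and 11.5 FPKM in F1 TCs, against 5.98, 2.39 and 4.07 FPKM in F5 TCs (2.80 ± 0.57, adjusted p = 0.0406). Over the list of steroid hormone synthesis 3 of 21 genes were called, 1 higher and 2 lower, against 1.13% and 0.991% of all genes. The median log2 fold change was -0.14, against 0.02 over all genes. In mes100 TCs 4 of the 21 were called, all lower in F1, with CYP11A1, STAR and STARD4 beside CYP17A1, against 3.46% of all 16491 genes tested there (1.39% higher and 2.07% lower).

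**Figure D2:**
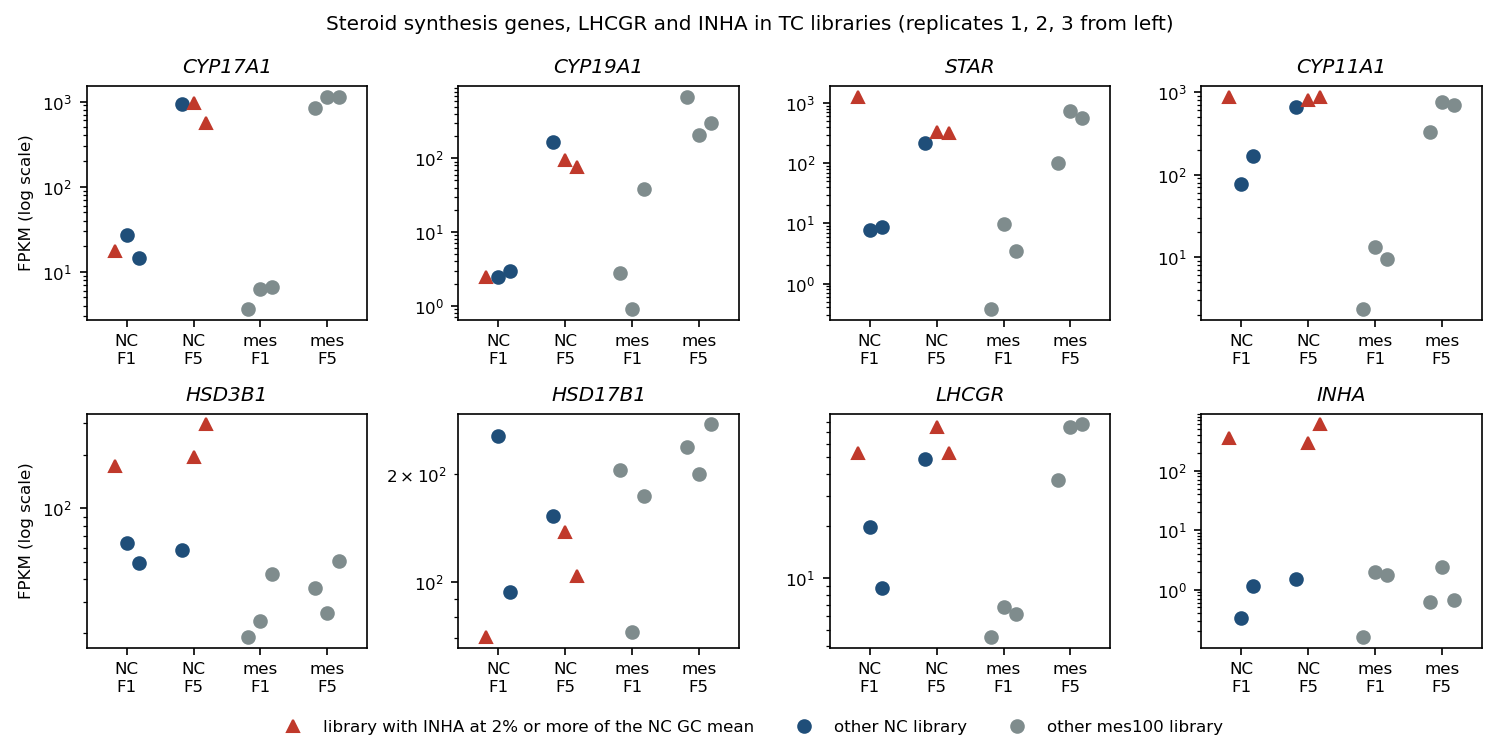
Points are single TC libraries, with the level in FPKM on a log axis, for NC F1, NC F5, mes100 F1 and mes100 F5, and red triangles mark libraries whose INHA reached 2% of the NC GC mean. CYP17A1 and CYP19A1 are low in all 3 NC F1 libraries (at most 26.99 and 2.98 FPKM), while for STAR and CYP11A1 the NC F1 libraries drawn as circles are low and the triangle is high.

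Receptors of the hormones that act on the wall gave 0 calls by edgeR among 21 receptors and steroidogenic regulators (5 had an unadjusted p under 0.05, 2 higher and 3 lower, and DESeq2 called 1). LHCGR, the LH receptor, had 52.9, 19.8 and 8.74 FPKM in F1 TCs and 48.8, 74.9 and 53.1 FPKM in F5 TCs (-0.97 ± 0.64, adjusted p = 0.405). F1 replicate 1 lay within the F5 range, and GCs of F1 averaged 287 FPKM, of which its INHA share comes to 67.4 FPKM. In mes100 TCs LHCGR was lower in F1, at 4.55, 6.75 and 6.19 FPKM against 36.7, 74.8 and 77.5 FPKM in F5 (-3.35, adjusted p = 0.00601). NR5A1, the nuclear receptor that drives steroidogenic genes, had no call either. It had 74.4, 20.2 and 16.1 FPKM in F1 TCs and 43.0, 73.2 and 123 FPKM in F5 TCs (-0.98 ± 0.70, adjusted p = 0.443). Its INHA share comes to 29.8 FPKM in F1 replicate 1 and to 42.4 and 88.4 FPKM in F5 replicates 2 and 3. In mes100 hens NR5A1 had a lower level in F1 (-1.53, adjusted p = 0.00601). The estrogen receptors ESR1 and ESR2 were at most 2.87 FPKM at both stages, with 0.611, 0.724 and 0.940 FPKM of ESR2 in F1 TCs, against 2.27, 1.49 and 1.65 FPKM in F5 TCs (-1.13 ± 0.27, adjusted p = 0.0632), and 0.833, 1.35 and 0.829 FPKM of ESR1 in F1 TCs, against 2.87, 1.69 and 2.08 FPKM in F5 TCs (-1.02 ± 0.34, adjusted p = 0.127).

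The progesterone receptor PGR differed little between stages in the theca and much in the granulosa. It had 21.6, 19.2 and 24.0 FPKM in F1 TCs and 33.6, 27.4 and 26.4 FPKM in F5 TCs (-0.31 ± 0.14, adjusted p = 0.236), while NC GCs had 74.8, 69.6 and 58.1 FPKM in F1 and at most 0.0994 FPKM in F5. The test of the difference between the layers gave a log2 of -10.6 (adjusted p = 3.64e-07). FSHR, the receptor of follicle stimulating hormone, had 5.19, 5.96 and 4.45 FPKM in F1 TCs and 6.205, 8.58 and 14.6 FPKM in F5 TCs (-0.80 ± 0.34, adjusted p = 0.208). The groups did not overlap for PGR or FSHR, and neither gene passed the test. In F1 replicate 1 the INHA share comes to 15.9 FPKM of PGR and 4.94 FPKM of FSHR, and in F5 replicates 2 and 3 to 8.69 and 18.1 FPKM of FSHR.

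Cholesterol synthesis and uptake gave 0 calls by edgeR among 28 genes (2 had an unadjusted p under 0.05, both higher in F1, and DESeq2 called 0), with a median log2 fold change of 0.10. ABCA1, which exports cholesterol from cells, passed the adjusted p without reaching the fold, at 4.36, 4.76 and 7.62 FPKM in F1 TCs, against 2.49, 2.67 and 1.84 FPKM in F5 TCs (1.37 ± 0.25, adjusted p = 0.0338). Here too F1 replicate 1 stood apart, for instance in FDPS, with 438, 76.0 and 76.3 FPKM in F1 TCs and 175, 188 and 208 FPKM in F5 TCs (chosen after its values were seen). In mes100 TCs 8 of the 28 were called and all were lower in F1, against 2.07% of all genes called lower there. The median was -0.79, against -0.02 over all genes tested there. The median in NC was -0.49 in the 3 libraries with little granulosa RNA.

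Among theca-richer genes that reached 5 FPKM at 1 stage and met the other limits of the naming rule (a gene symbol, a single locus, no overlap of the stages), GLDN, WNT9A and DEPTOR fell by large amounts. GLDN, gliomedin, had 1.84, 1.2997 and 2.39 FPKM in F1 TCs, against 35.3, 16.9 and 18.6 FPKM in F5 TCs (-3.55 ± 0.37, adjusted p = 0.0145). It lies on chromosome 10 at 9241078 to 9256660 on the plus strand, 13644 bases from CYP19A1 on the minus strand, and the exons of the genes do not overlap. WNT9A, a secreted WNT ligand, had 0.309, 0.882 and 0.617 FPKM in F1 TCs, against 9.38, 8.08 and 5.17 FPKM in F5 TCs (-3.52 ± 0.45, adjusted p = 0.0176). It was the only gene called among 35 of WNT signalling, against 2.13% of all genes called. DEPTOR, an inhibitor of the kinase mTOR, had 1.46, 1.65 and 2.17 FPKM in F1 TCs, against 15.8, 15.4 and 9.08 FPKM in F5 TCs (-2.81 ± 0.28, adjusted p = 0.0139). In all 3 genes the highest F1 library lay far below the lowest F5 library.

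GRP, the gastrin-releasing peptide known from nerves and gut, was abundant in F5 theca and fell in F1. It had 39.0, 159 and 92.9 FPKM in F1 TCs, against 539.7, 699 and 465 FPKM in F5 TCs (-2.45 ± 0.49, adjusted p = 0.0395). The collagen COL26A1 had 0.777, 0.603 and 1.67 FPKM in F1 TCs, against 10.8, 6.27 and 5.69 FPKM in F5 TCs (-2.80 ± 0.44, adjusted p = 0.0262). RTN1, a reticulon of the endoplasmic reticulum, had 3.72, 4.07 and 2.97 FPKM in F1 TCs, against 24.8, 26.6 and 12.8 FPKM in F5 TCs (-2.48 ± 0.31, adjusted p = 0.0165). In the granulosa layer the fit had GRP and RTN1 higher in F1 (log2 fold changes of 7.68 and 3.51 in NC GCs). GRP was listed at 0 in 2 of the 3 F5 GC libraries, so its fitted size depends on the prior count. In F1 GCs GRP had 8.87 and 7.21 FPKM in replicates 1 and 2, which are of 1 hen, and 0.992 FPKM in replicate 3. RTN1 had 8.59, 8.65 and 1.21 FPKM there, against 0.334, 1.13 and 0.729 FPKM in F5 GCs. The tests between layers, which count the libraries of that hen as separate, gave -10.2 (adjusted p = 0.000793) and -6.01 (adjusted p = 0.00179). In mes100 TCs the log2 fold changes were -3.36 for GRP (adjusted p = 0.00653) and -3.65 for RTN1 (adjusted p = 0.00485).

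CEL, the bile salt-activated lipase, has a higher level in GCs and fell in F1 theca. Its levels were 1.59, 2.04 and 0.153 FPKM in F1 TCs, against 19.4, 54.8 and 35.5 FPKM in F5 TCs (-4.73 ± 0.94, adjusted p = 0.0395). GCs averaged 28.7 FPKM in F1 and 61.2 FPKM in F5, and the INHA share comes to 9.77 and 20.4 FPKM in F5 replicates 2 and 3, below their values, and to 6.76 FPKM in F1 replicate 1, above its value. In mes100 TCs CEL had 0.122, 0 and 0 FPKM in F1 and 0.161, 27.6 and 1.63 FPKM in F5. It did not pass the test there (adjusted p = 0.0593). The other granulosa-richer genes named by the rule were DSCC1, TYMS and NCAPG, which act in DNA replication and chromosome condensation and are taken up with the cell cycle below.

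CHAC1, which breaks down glutathione and is known as a gene of the unfolded protein response, rose in F1 theca. It had 183, 156 and 191 FPKM in F1 TCs, against 7.85, 16.7 and 8.30 FPKM in F5 TCs (4.12 ± 0.36, adjusted p = 0.0134). LCAT, which esterifies cholesterol on lipoproteins, had 166, 207 and 266 FPKM in F1 TCs, against 33.2, 23.4 and 33.9 FPKM in F5 TCs (2.93 ± 0.23, adjusted p = 0.0134). MGP, matrix Gla protein, which holds back calcification, had 686, 591 and 984 FPKM in F1 TCs, against 171, 97.1 and 105 FPKM in F5 TCs (2.72 ± 0.29, adjusted p = 0.0145). The 3 F1 libraries of these genes all lay above the F5 libraries, as the naming rule requires. LCAT and MGP were at most 4.57 FPKM in any NC GC library of these stages, whereas CHAC1 rose in GCs too (5.87, with a mean of 110.2 FPKM in F1).

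The other theca-richer genes with large rises were less abundant. The orphan receptor GPR146 had 7.59, 7.44 and 15.8 FPKM in F1 TCs, against 1.51, 1.16 and 1.36 FPKM in F5 TCs (2.90 ± 0.34), and the alcohol dehydrogenase ADH1C had 14.8, 11.3 and 8.72 FPKM in F1 TCs, against 2.19, 1.95 and 1.11 FPKM in F5 TCs (2.86 ± 0.35). CHAD, a leucine-rich matrix protein of cartilage, had 9.53, 11.8 and 10.4 FPKM in F1 TCs, against 2.52, 1.04 and 1.59 FPKM in F5 TCs (2.74 ± 0.33), and the secreted protein CCDC3 had 38.8, 49.7 and 32.7 FPKM in F1 TCs, against 10.6, 7.42 and 4.64 FPKM in F5 TCs (2.54 ± 0.33). Their adjusted p-values were 0.0160 for GPR146, 0.0165 for ADH1C, 0.0165 for CHAD and 0.0176 for CCDC3, and the naming rule takes only genes whose stages do not overlap. In mes100 TCs, GPR146 and CCDC3 passed the adjusted p (log2 fold changes of 2.05 and 2.13), whereas ADH1C and CHAD had 1.55 and 1.03 and did not (adjusted p = 0.0560 and 0.0724).

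Of the genes with a higher level in GCs, the naming rule gave BHLHE22, ZBTB16, NPL and RGS11 among those that rose. BHLHE22, a helix-loop-helix transcription factor, had 6.48, 5.14 and 4.65 FPKM in F1 TCs, against 0.675, 0.545 and 0.709 FPKM in F5 TCs (3.19 ± 0.27, adjusted p = 0.0134). ZBTB16, the zinc finger repressor PLZF, known as a target of glucocorticoid and progesterone receptors in mammals, had 54.3, 26.6 and 25.7 FPKM in F1 TCs, against 5.55, 4.59 and 5.60 FPKM in F5 TCs (2.89 ± 0.36, adjusted p = 0.0169). In F1 replicate 1 the INHA share of the GC mean comes to 11.3 FPKM of BHLHE22, more than the value itself, and to 12.8 FPKM of ZBTB16. F1 replicates 2 and 3, with little granulosa RNA, were above every F5 library, which the naming rule requires of each gene it takes. The part of granulosa RNA in these genes was not tested. NPL, which cleaves sialic acid, had 40.1, 13.8 and 17.8 FPKM in F1 TCs, against 3.84, 2.64 and 4.66 FPKM in F5 TCs (2.53 ± 0.43, adjusted p = 0.0293), and the INHA share comes to 30.7 FPKM in F1 replicate 1. RGS11, a regulator of G protein signalling, had 10.8, 7.75 and 12.2 FPKM in F1 TCs, against 2.64, 2.38 and 0.781 FPKM in F5 TCs (2.53 ± 0.48, adjusted p = 0.0353), and 0.41 in mes100 TCs (adjusted p = 0.496). Its INHA share comes to 5.10 FPKM in F1 replicate 1.

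Most genes of the cell cycle list passed the test and were lower in F1 theca. Of 38 cell cycle and DNA replication genes tested, 22 were called lower and 0 higher, against 0.991% of all genes called lower. An unadjusted p under 0.05 was seen in 37, all lower. The adjusted p was passed by 31, all lower, against 2.83% of all genes. The median log2 fold change was -1.72 and all 38 values were negative, where 51.2% of all genes tested had a positive value. The median level of the 38 genes was 5.22, 7.54 and 6.23 FPKM in the F1 libraries, against 21.0, 20.7 and 22.2 FPKM in the F5 libraries, so the stages were separate and the libraries of a stage close to each other. TPX2, which nucleates spindle microtubules, had 7.62, 10.1 and 10.6 FPKM in F1 TCs, against 39.5, 35.1 and 36.7 FPKM in F5 TCs (-1.88 ± 0.14, adjusted p = 0.0134). UHRF1, which keeps DNA methylation through replication, had 4.72, 6.78 and 6.16 FPKM in F1 TCs, against 21.5, 20.3 and 20.6 FPKM in F5 TCs (-1.71 ± 0.15, adjusted p = 0.0134).

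DNA synthesis and mitosis were both represented among these genes. The S-phase cyclin CCNE2 had 0.618, 0.612 and 0.704 FPKM in F1 TCs, against 3.59, 3.09 and 3.34 FPKM in F5 TCs (-2.16 ± 0.21, adjusted p = 0.0139). For DNA synthesis, TYMS, thymidylate synthase, had 2.37, 3.37 and 4.86 FPKM in F1 TCs, against 20.5, 22.5 and 24.0 FPKM in F5 TCs (-2.56 ± 0.27, adjusted p = 0.0145), and DSCC1, a subunit of a clamp loader, had 1.18, 1.91 and 1.46 FPKM in F1 TCs, against 9.62, 8.81 and 11.0 FPKM in F5 TCs (-2.58 ± 0.23, adjusted p = 0.0134). For mitosis, the kinase CDK1 had 18.5, 31.3 and 30.3 FPKM in F1 TCs, against 109, 88.8 and 95.1 FPKM in F5 TCs (-1.76 ± 0.21, adjusted p = 0.0160), and the condensin subunit NCAPG had 0.568, 1.23 and 1.76 FPKM in F1 TCs, against 7.44, 4.504 and 4.85 FPKM in F5 TCs (-2.13 ± 0.42, adjusted p = 0.0395). In F5 replicates 2 and 3 the INHA share comes to 6.21 and 13.0 FPKM of TYMS, to 4.71 and 9.82 FPKM of DSCC1 and to 1.86 and 3.87 FPKM of NCAPG. F5 replicate 1, with little granulosa RNA, was above every F1 library for each, which the naming rule requires of these 3 genes. CCNE1 and CCND2 were the members with the smallest differences, at -0.46 ± 0.22 and -0.43 ± 0.14 (adjusted p = 0.248 and 0.124).

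The same genes were also higher in GCs of F5 than of F1, with a median of 15.1 to 19.7 FPKM over the 38 genes in NC GCs of F5 and 0.614 to 1.24 FPKM in those of F1. In TCs, F5 replicate 1, with an INHA share of 0.0839%, had the median of 21.0 FPKM given above, close to the F5 libraries that carried granulosa RNA. The median log2 fold change was -1.57 in the 3 libraries with little granulosa RNA and -1.74 with the hen as a block. In mes100 TCs 26 of the 38 genes were called lower in F1 and 35 passed the adjusted p, all lower, against 6.9% of all genes, with a median of -2.15.

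**Figure D3:**
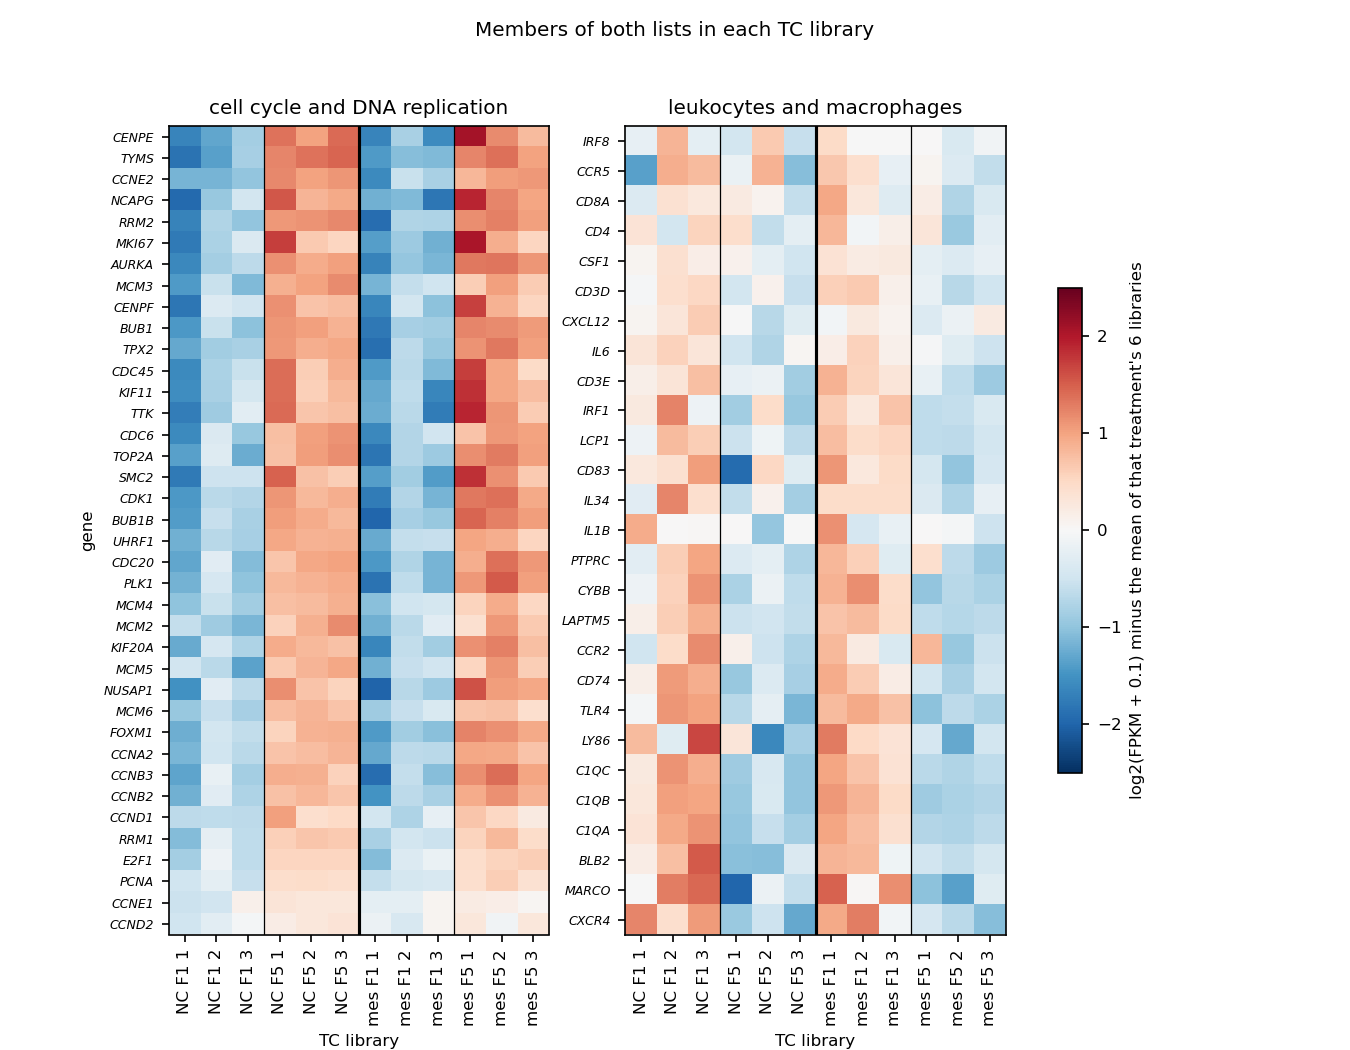
The colour of each cell is log2(FPKM + 0.1) of a gene (row) in a TC library (column) minus its mean over the 6 libraries of that treatment, for the cell cycle list and the list of leukocytes and macrophages, with NC F1, NC F5, mes100 F1 and mes100 F5 as column blocks. Most cell cycle genes are below their mean in F1 and above it in F5 in both treatments, and most leukocyte genes show the opposite.

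Several genes of macrophages and other leukocytes rose. Of 27 genes tested 6 were called higher and 0 lower (18 had an unadjusted p under 0.05, all higher), against 1.13% of all genes called higher. All 27 had a positive log2 fold change, against 51.2% of all genes, and the median was 1.11 (1.36 in the 3 libraries with little granulosa RNA). The median level of the list was 17.3, 14.1 and 17.9 FPKM in the F1 libraries, against 6.50, 5.62 and 9.68 FPKM in the F5 libraries. C1QA, C1QB and C1QC encode the chains of complement component C1q, which macrophages make, and lie side by side on chromosome 21. C1QA had 54.0, 82.2 and 92.5 FPKM in F1 TCs, against 21.6, 28.7 and 23.8 FPKM in F5 TCs (1.73 ± 0.22, adjusted p = 0.0174), C1QB had 43.0, 71.3 and 70.1 FPKM in F1 TCs, against 18.1, 27.1 and 17.8 FPKM in F5 TCs (1.66 ± 0.26, adjusted p = 0.0265), and C1QC had 43.8, 80.7 and 69.4 FPKM in F1 TCs, against 20.0, 28.1 and 18.5 FPKM in F5 TCs (1.65 ± 0.27, adjusted p = 0.0276). In each of the 3 genes the F1 library with granulosa RNA was the lowest of its group and still above every F5 library.

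The other called members were CXCR4, a chemokine receptor (1.99 ± 0.34, adjusted p = 0.0289), CD74 and BLB2. CD74, the invariant chain of MHC class II, had 484, 918 and 820.1 FPKM in F1 TCs, against 227, 345 and 246 FPKM in F5 TCs (1.55 ± 0.28, adjusted p = 0.0319), and BLB2, a class II beta chain of the chicken, had 139, 207 and 357 FPKM in F1 TCs, against 59.6, 58.7 and 95.2 FPKM in F5 TCs (1.81 ± 0.37, adjusted p = 0.0420). The pan-leukocyte gene PTPRC was low throughout, at 0.860, 1.68 and 2.21 FPKM in F1 TCs and 0.813, 0.885 and 0.583 FPKM in F5 TCs (1.13 ± 0.37, adjusted p = 0.126), and the T cell gene CD3E had 1.97, 2.24 and 3.08 FPKM in F1 TCs and 1.53, 1.59 and 0.933 FPKM in F5 TCs (0.95 ± 0.32, adjusted p = 0.133). The groups of PTPRC overlapped and neither gene passed the test. In mes100 TCs 7 of 28 leukocyte genes were called, all higher in F1, and 19 passed the adjusted p, all higher, against 8.25% of all genes. The red cell markers HBAD and EPB42, neither of which passed the test, summed to 37.0, 81.2 and 39.5 FPKM in F1, against 17.4, 27.4 and 23.2 FPKM in F5, nearly all of it HBAD, and their part in the leukocyte values was not tested.

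A few blood vessel genes rose. Of 30 genes 3 were called higher and 0 lower (13 had an unadjusted p under 0.05, all higher), against 1.13% of all genes called higher, 24 were positive, against 51.2% of all genes, and the median was 0.48. RGS5, a regulator of G protein signalling known as a marker of pericytes, had 55.4, 81.6 and 100.2 FPKM in F1 TCs, against 20.5, 15.4 and 14.4 FPKM in F5 TCs (2.35 ± 0.24, adjusted p = 0.0139). VWF, the clotting factor of endothelium, had 37.1, 37.1 and 67.1 FPKM in F1 TCs, against 22.6, 14.7 and 12.7 FPKM in F5 TCs (1.61 ± 0.30, adjusted p = 0.0353), and LYVE1, a receptor of lymphatic endothelium and some macrophages, had 6.72, 10.3 and 14.2 FPKM in F1 TCs, against 4.94, 3.05 and 3.68 FPKM in F5 TCs (1.52 ± 0.31, adjusted p = 0.0415). The general endothelial genes CDH5 and PECAM1 overlapped between the stages (0.36 ± 0.33 and 0.57 ± 0.35, adjusted p = 0.557 and 0.366). All 6 endothelial markers together summed to 141, 163 and 220 FPKM in F1, against 127, 100.2 and 98.4 FPKM in F5.

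The growth factors of vessels overlapped between the stages. VEGFA had 19.3, 11.5 and 10.3 FPKM in F1 TCs and 12.5, 24.8 and 46.9 FPKM in F5 TCs, and PGF, placental growth factor, had 26.0, 29.7 and 19.6 FPKM in F1 TCs and 9.79, 72.5 and 159 FPKM in F5 TCs. In F5 both were highest in replicates 2 and 3, the libraries with granulosa RNA, and neither passed the test (-0.91 ± 0.52 and -1.58 ± 0.86, adjusted p = 0.332 and 0.311).

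Smooth muscle genes gave 0 calls among 28 by edgeR and 0 by DESeq2, with a median log2 fold change of 0.47. Positive values were found in 26, against 51.2% of all genes, and 12 had an unadjusted p under 0.05, all higher in F1. DES, the intermediate filament of muscle, had 381, 305 and 398 FPKM in F1 TCs, against 256, 209 and 242 FPKM in F5 TCs (0.73 ± 0.15, adjusted p = 0.0436), and SMTN, smoothelin, had 63.5, 107 and 86.3 FPKM in F1 TCs, against 47.5, 54.3 and 46.0 FPKM in F5 TCs (0.92 ± 0.20, adjusted p = 0.0493). Both passed the adjusted p below the fold threshold. The actins ACTA2 and ACTG2 overlapped between the stages (0.17 ± 0.16 and -0.05 ± 0.16, adjusted p = 0.577 and 0.882). In mes100 TCs 11 of 29 genes passed the adjusted p, all higher in F1, against 8.25% of all genes.

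Ligands and receptors that set muscle tone included endothelin 1 among the genes that rose. Of 20 such genes 2 were called higher and 0 lower (9 had an unadjusted p under 0.05, 8 of them higher), against 1.13% of all genes called higher, with a median of 0.89. EDN1, endothelin 1, a peptide that constricts smooth muscle, had 17.3, 16.1 and 18.4 FPKM in F1 TCs, against 5.97, 6.05 and 6.63 FPKM in F5 TCs (1.59 ± 0.14, adjusted p = 0.0134), and the libraries of each stage were nearly alike. In NC GCs EDN1 went the other way (-3.51), and the test between the layers gave 5.07 (adjusted p = 0.000443). OXTR, which is the receptor of the oxytocin family of peptides, had 1.11, 1.00 and 1.07 FPKM in F1 TCs, against 0.401, 0.160 and 0.0705 FPKM in F5 TCs (2.44 ± 0.66, adjusted p = 0.0825), and in mes100 TCs its log2 fold change was 1.97 (adjusted p = 0.0275).

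Few genes of the extracellular matrix passed the test. Of 20 collagens 0 were called by edgeR (5 had an unadjusted p under 0.05, 3 higher and 2 lower) and 0 by DESeq2, and the median was 0.05. The basement membrane collagen COL4A1 had 983, 1163 and 1261 FPKM in F1 TCs, against 768, 633 and 514 FPKM in F5 TCs (0.95 ± 0.16, adjusted p = 0.0277), and its partner COL4A2 had 686, 929 and 872 FPKM in F1 TCs, against 556, 479 and 379.7 FPKM in F5 TCs (0.93 ± 0.17, adjusted p = 0.0316). Of 29 other matrix genes 1 was called higher and 1 lower, against 1.13% and 0.991% of all genes, with a median of 0.16. LAMA2, a laminin chain of muscle basement membrane, had 4.07, 4.82 and 5.84 FPKM in F1 TCs, against 1.47, 1.23 and 1.48 FPKM in F5 TCs (1.93 ± 0.16, adjusted p = 0.0134), and LUM, lumican, a proteoglycan that spaces collagen fibrils, had 1.00, 0.929 and 2.17 FPKM in F1 TCs, against 4.30, 5.30 and 5.55 FPKM in F5 TCs (-1.78 ± 0.37, adjusted p = 0.0447). Of 27 proteases and inhibitors 1 was called higher, against 1.13% of all genes. This was PLAT, the tissue plasminogen activator, with 28.8, 39.0 and 31.3 FPKM in F1 TCs, against 12.9, 9.62 and 11.1 FPKM in F5 TCs (1.68 ± 0.17, adjusted p = 0.0139). MMP9, a gelatinase and the most abundant gene of the list in F1, had 1732, 2586 and 1980.4 FPKM in F1 TCs, against 1091, 1518 and 983 FPKM in F5 TCs (0.92 ± 0.22, adjusted p = 0.0606), with no overlap and without passing the test.

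Prostaglandins take part in oviposition and in rupture of the follicle, and 3 of 18 genes of their synthesis, transport and reception were called, all higher (10 had an unadjusted p under 0.05, 8 of them higher), against 1.13% of all genes called higher, with a median of 0.36. PTGS1, cyclooxygenase 1, had 61.1, 70.0 and 81.0 FPKM in F1 TCs, against 24.6, 17.4 and 14.0 FPKM in F5 TCs (2.04 ± 0.22, adjusted p = 0.0145). PTGDS, a prostaglandin D synthase, had 23.0, 45.0 and 39.3 FPKM in F1 TCs, against 8.91, 9.28 and 4.21 FPKM in F5 TCs (2.37 ± 0.38, adjusted p = 0.0272), and SLCO2A1, the prostaglandin carrier, had 33.7, 24.3 and 23.0 FPKM in F1 TCs, against 13.1, 7.12 and 9.44 FPKM in F5 TCs (1.58 ± 0.28, adjusted p = 0.0315). In F1 replicate 1 the INHA share comes to 16.5 FPKM of SLCO2A1. In all 3 the F1 libraries were separate from the F5 libraries, and PTGS1 and PTGDS were also called in mes100 TCs (1.64 and 2.16). PTGS2, the inducible cyclooxygenase, was high in F1 replicate 1 alone, with 54.2, 1.10 and 1.17 FPKM in F1 TCs and 0.711, 0.444 and 0.506 FPKM in F5 TCs (5.23 ± 1.72, adjusted p = 0.126).

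Few growth factor genes were called. In the BMP, TGF-beta and activin list 2 of 42 genes were called, both higher, against 1.13% of all genes called higher, and 18 of the 42 were negative, with a median of 0.13, against 0.02 over all genes. BMP6 had 34.4, 39.7 and 45.1 FPKM in F1 TCs, against 13.5, 12.2 and 10.2 FPKM in F5 TCs (1.84 ± 0.15, adjusted p = 0.0134), and GDF6, another BMP-type ligand, had 2.97, 3.11 and 2.63 FPKM in F1 TCs, against 0.501, 0.495 and 0.958 FPKM in F5 TCs (2.25 ± 0.38, adjusted p = 0.0287). Both had no overlap, were at most 0.587 FPKM in any NC GC library of these stages, and were called in mes100 TCs (2.31 and 2.14). HBEGF, an EGF receptor ligand, was the only called gene of 12 in the EGF and KIT list, with 22.2, 14.4 and 14.6 FPKM in F1 TCs, against 6.12, 5.47 and 6.46 FPKM in F5 TCs (1.63 ± 0.26, adjusted p = 0.0271). STC2, a secreted inhibitor of the protease that frees IGFs, was the only called gene of 17 in the IGF list, with 96.0, 85.3 and 96.7 FPKM in F1 TCs, against 37.7, 39.2 and 21.5 FPKM in F5 TCs (1.62 ± 0.24, adjusted p = 0.0232), and had 0.84 in mes100 TCs (adjusted p = 0.402). The calls of 1 of 12 and 1 of 17 genes stand against 1.13% of all genes called higher.

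In the WNT list, the receptors FZD8 and FZD4, the ligand WNT5A and the WNT deacylase NOTUM passed the adjusted p below the fold threshold, with log2 fold changes of 1.37 ± 0.16, 0.60 ± 0.12, 1.02 ± 0.21 and 1.44 ± 0.24 (adjusted p = 0.0164, 0.0406, 0.0422 and 0.0276). WNT4 and IHH, which GCs make, were high only in the F5 libraries with granulosa RNA. WNT4 had 1.88, 0.117 and 0.0631 FPKM in F1 TCs and 0.205, 139 and 369 FPKM in F5 TCs (-7.77 ± 2.54, adjusted p = 0.126), and IHH, Indian hedgehog, had 0.342, 0.0909 and 0 FPKM in F1 TCs and 0, 42.7 and 118 FPKM in F5 TCs (-8.35 ± 2.61, adjusted p = 0.113). The hedgehog targets PTCH1 and GLI1, which the theca itself expresses, had log2 fold changes of -1.10 ± 0.27 and -0.97 ± 0.28 (adjusted p = 0.0671 and 0.0920) and fell in mes100 TCs (-1.83 and -1.63, adjusted p = 0.00878 and 0.00792). The lists of hedgehog signalling (14 genes), Notch signalling (12) and the circadian clock (18) had 0 calls by edgeR, with 5, 3 and 3 genes at an unadjusted p under 0.05, and DESeq2 called 1, 0 and 0. The lead genes of these lists were BOC, a hedgehog co-receptor (0.71 ± 0.16, adjusted p = 0.0540), the Notch ligand DLL4 (0.70 ± 0.20, adjusted p = 0.0905) and the clock repressor NR1D2 (0.71 ± 0.16, adjusted p = 0.0509).

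Among immediate early genes and other factors known to respond to LH 3 rose, and F1 replicate 1 stood apart from the other F1 libraries. The median level of the 27 genes tested was 60.5, 15.63 and 15.8 FPKM in the F1 libraries, against 11.7, 11.2 and 8.62 FPKM in the F5 libraries. Of these genes 3 were called higher by edgeR and 0 lower (19 had an unadjusted p under 0.05, all higher), against 1.13% of all genes called higher. The log2 fold change was positive in 26, against 51.2% of all genes. Its median was 1.64, which became 0.83 in the 3 libraries with little granulosa RNA and was 0.78 in mes100 TCs. CEBPD, a transcription factor of the C/EBP family, had 522, 313 and 281 FPKM in F1 TCs, against 86.5, 75.7 and 67.1 FPKM in F5 TCs (2.42 ± 0.29, adjusted p = 0.0165). JUN, a subunit of AP-1, had 167, 90.3 and 94.9 FPKM in F1 TCs, against 42.3, 43.0 and 40.2 FPKM in F5 TCs (1.62 ± 0.29, adjusted p = 0.0315), and DUSP1, a phosphatase of MAP kinases, had 294, 147 and 162 FPKM in F1 TCs, against 66.6, 77.1 and 49.4 FPKM in F5 TCs (1.78 ± 0.34, adjusted p = 0.0369). In these 3 genes all F1 libraries exceeded all F5 libraries, and in F1 replicate 1 the INHA share comes to 169 FPKM of CEBPD and 88.2 FPKM of DUSP1. EGR3, an early growth response factor, was high in F1 replicate 1 alone, with 68.2, 1.86 and 2.12 FPKM in F1 TCs and 1.65, 1.83 and 1.10 FPKM in F5 TCs (4.15 ± 1.53, adjusted p = 0.159, chosen after its values were seen). The median of the same 27 genes was 16.1, 14.7 and 11.6 FPKM in the NC GCs of F1, below that of F1 replicate 1, and the part of granulosa RNA in this list was not tested further.

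The 6 mm follicles of the same treatment group, which have not yet been selected, place these changes in a longer series. CYP17A1 had 1267, 1207 and 753 FPKM in 6 mm TCs, which overlap the F5 values, so that only F1 was low. CYP19A1 had 318, 349.8 and 655 FPKM in 6 mm TCs, above each F5 library, and LUM had 33.0, 24.2 and 62.7 FPKM there, so both were lower at each later stage. LCAT went the opposite way, with 1.82, 3.13 and 1.52 FPKM at 6 mm, 23.4 to 33.9 FPKM in F5 and 166 to 266 FPKM in F1. GDF6 had 0.229, 0.0605 and 0.272 FPKM at 6 mm, whereas BMP6 had 13.0, 9.16 and 13.6 FPKM and CHAC1 12.6, 14.9 and 5.48 FPKM, which overlap the F5 values. GRP had 889.9, 899 and 558 FPKM and WNT9A 18.1, 10.4 and 18.7 FPKM at 6 mm. RGS5 had 60.7, 49.3 and 75.1 FPKM at 6 mm, above every F5 library and overlapping the F1 libraries. The same held for PTGDS (31.5, 51.3 and 23.7 FPKM at 6 mm), VWF (39.9, 38.4 and 41.9 FPKM) and LAMA2 (5.16, 3.33 and 4.55 FPKM). These genes were thus lowest in F5. C1QA had 24.0, 65.8 and 50.5 FPKM at 6 mm, which overlap the values of both later stages. The steps from 6 mm were not tested here.

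**Figure D4:**
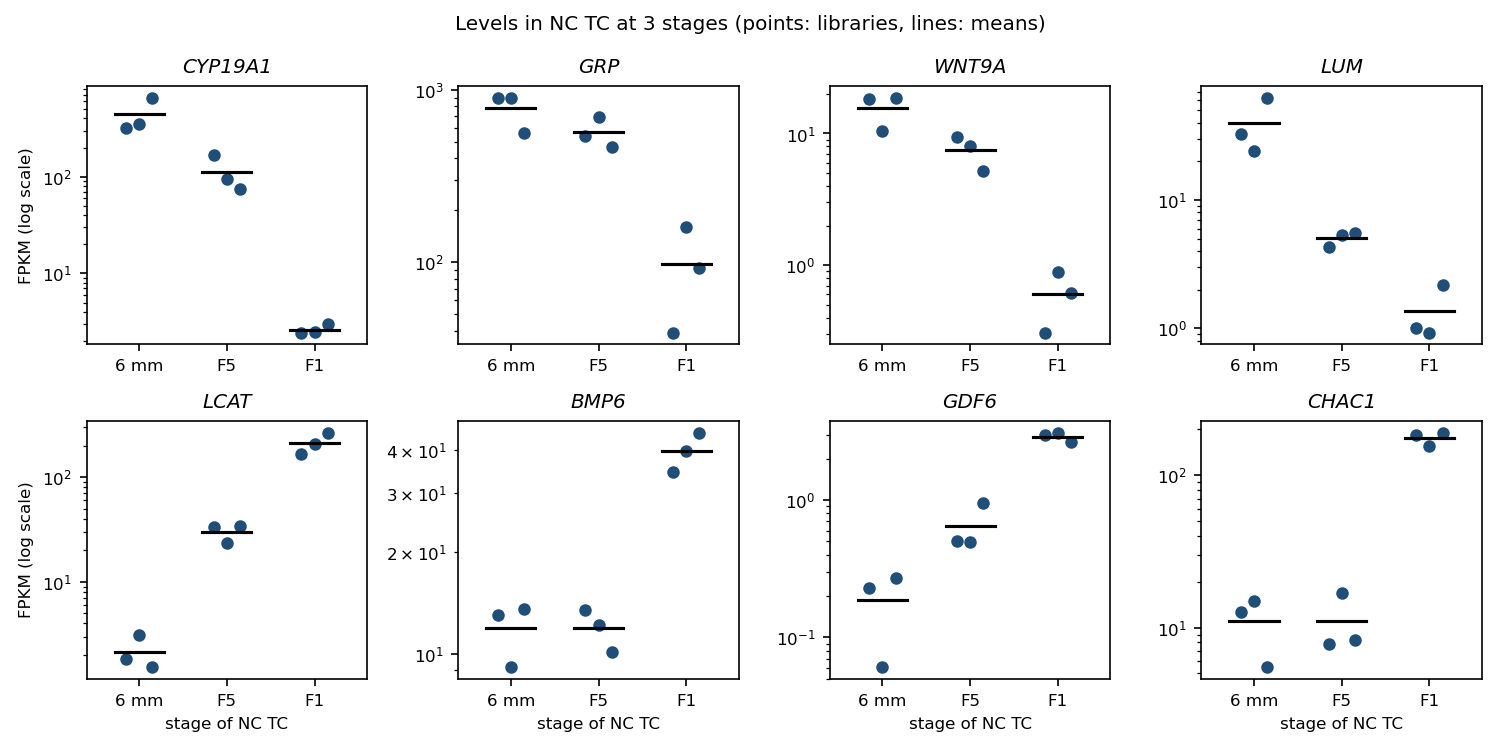
The level in FPKM on a log axis is plotted for each NC TC library at 6 mm, F5 and F1, for CYP19A1, GRP, WNT9A, LUM, LCAT, BMP6, GDF6 and CHAC1. CYP19A1 and LUM are lower at each later stage, LCAT is higher at each later stage, and BMP6 and CHAC1 stand apart only in F1.

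The mes100 hens give the same contrast in other birds. There 571 of 16491 genes were called, a share of 3.46%, with 229 higher and 342 lower in F1. Of the 343 genes called in NC, 342 were tested in mes100 TCs and 337 had the same direction (98.5%, against 78.8% of the 15798 genes tested in both). The adjusted p was passed in that direction by 274, and 200 were called, against 2513 and 537 of those 15798 genes. In the opposite direction 0 of the 342 passed it. By direction, 126 of 183 higher genes and 148 of 159 lower genes passed the adjusted p there, against 8.25% and 6.9% of all genes tested there. The interaction of stage and treatment, which asks whether the F1 against F5 difference itself differs between mes100 and NC TCs, gave 0 calls among 17269 genes by edgeR (smallest adjusted p = 0.857, 690 genes at an unadjusted p under 0.05) and 79 by DESeq2. In that test STAR and CYP11A1 had differences of -7.40 and -5.21 on the log2 scale (mes100 minus NC), with an adjusted p of 1.00 by edgeR for both, and the spread of NC F1 includes replicate 1 with its granulosa RNA.

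**Figure D5:**
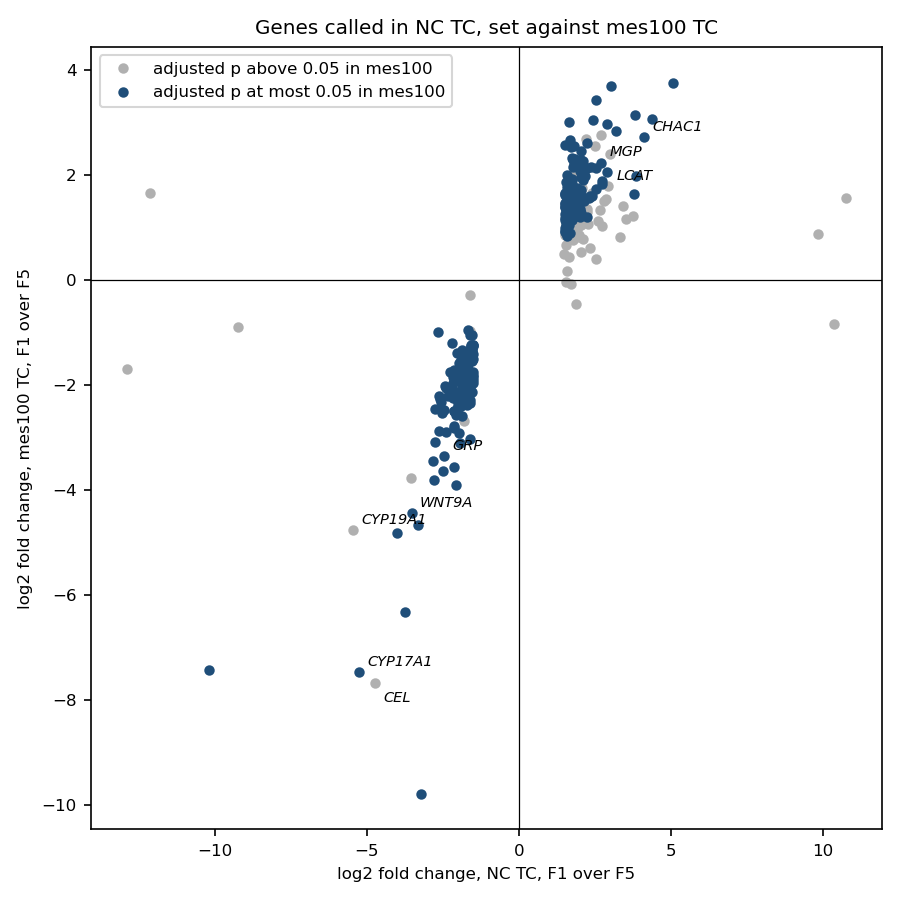
Each point is a gene called in NC, with the log2 fold change of F1 against F5 in NC TCs on the horizontal axis and in mes100 TCs on the vertical axis. Of 342 genes drawn, 337 lie in the quadrants where both have the same sign.

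Whether a change belongs to the theca layer needs the test between layers, which compares the F1 against F5 difference of NC TCs with that of NC GCs. Of the 343 genes, 168 (49.0%) passed it, against 25.2% of all 17234 genes tested. The 343 were chosen for a large difference in the same TC libraries, which by itself raises the share that passes. The higher share is therefore no result about these genes. Taken by itself the GC contrast had 178 of the 343 past an adjusted p of 0.05 in the same direction as in TCs and 24 in the opposite direction. The share of all genes past that contrast is not given here, so neither count is a result about the 343. The opposite group includes EDN1 and LAMA2, higher in F1 theca and lower in F1 granulosa (-2.49 for LAMA2 in GCs, test between layers 4.42, adjusted p = 0.000483), beside GRP and RTN1. CYP17A1 had a negative log2 fold change in both layers (-2.95 in GCs), with a test between layers of -2.33 (adjusted p = 0.0211). Its level in F5 GCs was only 0.535 to 1.74 FPKM. The GC libraries also held some RNA of theca cell types. The 6 fibroblast markers summed to 3.93, 6.19 and 4.25 FPKM in F5 GCs and to 80.1, 73.0 and 9.63 FPKM in F1 GCs. The part of such RNA in the GC values was not tested. The cell cycle genes TPX2, UHRF1, TYMS, DSCC1 and NCAPG fell in both layers and more in the granulosa, with differences of 3.12, 2.17, 1.51, 1.41 and 4.05 (adjusted p = 0.000447, 0.0235, 0.00586, 0.0364 and 0.0189). The same granulosa RNA sits in 3 of the TC libraries of this test, and with the GC libraries of the shared hen summed 3461 genes were called over all, against 4345.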

How the data were processed

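PolyA RNA of the theca and granulosa layers of hen follicles was sequenced by the authors as 150-base read pairs. Cutadapt 1.14, HISAT2 2.1.0, Samtools 1.7 (duplicates removed) and StringTie 1.3.4d were used by them on Gallus_gallus-5.0 with NCBI gene models, and their own tests with DESeq2 1.26.0 are not used here. The deposited count table holds StringTie counts (coverage times length over read length), in which a read pair can add up to 4 counts because the read length given to the counter was shorter than the reads, so counts are not independent molecules. The other deposited values used are the FPKM fields in the authors' StringTie transcript files, which were summed per gene. The kit is not stated to mark strand.

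Counts were tested with edgeR 4.0.16 in R 4.3.3 (filterByExpr, TMM, glmQLFit, glmQLFTest, Benjamini-Hochberg adjustment over all genes tested) on the 6 NC TC libraries, and in the same way on the 6 mes100 TC libraries. The interactions of stage with cell layer and with treatment were called on the adjusted p and 1 FPKM alone. In the main fit with cell layer the GC libraries of the shared hen were counted as separate. SE is the log2 fold change over the square root of F. The fit follows the study's comparison of groups without the hen. Same-numbered F1 and F5 libraries are of 1 hen by the study's sample table, and the correlations of their deviations were -0.126, 0.191 and -0.0218 in NC and 0.187, 0.229 and 0.178 in mes100. Within a group the variance between libraries was 3.31 to 4.50 times that of counting pairs. An exact permutation test of 3 against 3 libraries cannot go below 0.10, so none was used. In 3 simulated sets of the NC TC comparison (16138 genes) an adjusted p of at most 0.05 recovered 35.7% of genes given a true log2 difference of 1.5. For genes given 3.0 it recovered 79.7%. The fold threshold and the minimum of 1 FPKM were not applied there, so the share called could be lower.

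Genes named are 14 core steroid and hormone genes, the 8 highest and 8 lowest log2 fold changes among called theca-richer genes and the 4 highest and 4 lowest among granulosa-richer genes (single locus, a symbol that is not a LOC number, at least 5 FPKM at 1 stage, no overlap), and up to 3 called members of each of 20 lists by p, or else the member with the smallest p. Other genes named in the text come from these lists and were chosen after their values were seen. Some genes that this rule names are not reported here. The members, lists and named genes were chosen with earlier results of these data known. Of 527 list symbols 504 matched 1 locus, partly through RefSeq names. The INHA share is a library's INHA over the mean of the NC GCs of that stage, in percent, and times a gene's GC mean it gives the FPKM stated in the text. DESeq2 1.42.0, limma 3.58.1, other scalings, no filter on low counts, INHA as a covariate, the hen as a block and each library left out were tried as alternatives. Figures were drawn with matplotlib 3.10.9.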

Additional observations from a re-analysis of the deposited data

Results flagged for a closer look

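The F1 against F5 difference was compared between theca and granulosa of NC hens by an interaction term in edgeR. Of the 66 named genes 31 had an adjusted p of at most 0.05, which is why they are listed here, against 25.2% of all 17234 genes called. Many of the 66 were chosen for a large difference in the same theca libraries, which by itself raises that share. The count is therefore no result about the named genes. Each value below is the theca log2 fold change minus the granulosa log2 fold change, so a positive one means that F1 was relatively higher in the theca. Granulosa RNA was present in F1 replicate 1 and F5 replicates 2 and 3 of the theca. The granulosa libraries in turn held fibroblast markers of the theca, summing to 80.1, 73.0 and 9.63 FPKM in F1 and to 3.93, 6.19 and 4.25 FPKM in F5. Genes that are low in the granulosa, such as C1QA, LUM and CYP17A1, are the most exposed to this. The part of either kind of RNA in these values was not tested. The 3 F1 granulosa libraries came from 2 hens and were fitted as separate, so these p-values take libraries of 1 hen as replicates. With the libraries of that hen summed, 3461 genes were called over all, against 4345.

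Genes that rose in F1 theca and fell or did not pass the test in granulosa were EDN1 (5.07), ADH1C (4.62), LAMA2 (4.42), LCAT (3.85) and PLAT (1.98). HSD17B1 (3.26) and NR1D2 (2.26) did not pass the test in the theca and fell in the granulosa. Cell cycle genes fell in both layers and further in the granulosa, with 4.05 for NCAPG, 3.12 for TPX2, 2.17 for UHRF1, 1.51 for TYMS and 1.41 for DSCC1.

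Other genes that fell in the theca had negative differences, with -10.2 for GRP, -8.94 for LUM, -6.01 for RTN1, -4.13 for CEL, -4.12 for DEPTOR, -3.56 for WNT9A, -2.55 for COL26A1 and -2.33 for CYP17A1. GRP and RTN1 rose in the granulosa, most in F1 replicates 1 and 2, which are of 1 hen. LUM had 0 FPKM in all 3 F5 granulosa libraries, and GRP, SLCO2A1, BHLHE22 and C1QA had 0 in 2 of 3, so the size of their differences depends on the prior count of the fit.

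Genes that rose in both layers and further in the granulosa were SLCO2A1 (-11.5), BHLHE22 (-9.05), NPL (-5.72), DUSP1 (-2.99), RGS11 (-2.84), CEBPD (-2.23), STC2 (-1.89) and CHAC1 (-1.76). C1QA (-3.73) rose in the theca and was at most 1.21 FPKM in granulosa of both stages. PGR (-10.6) and LHCGR (-3.69) did not pass the test in the theca and rose in the granulosa.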

How the results depend on the processing

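For the 343 genes called in NC TCs, DESeq2 called 578 (340 shared), the fit of all 27 TC libraries 542 (303 shared), and dropping the fold threshold 1001. Since same-numbered libraries pair by hen, a replicate block was fitted, with 0 calls by edgeR (3539 genes at an unadjusted p under 0.05) and 623 by DESeq2 (333 shared). The libraries with INHA under 2% of GCs alone gave 33 calls (6 shared), a choice made after seeing the data, as were the block with DESeq2, the unscaled totals and the covariate in the fit of all TC libraries (510 calls). Leaving out 1 library gave 0 to 318 calls: 0 without F5 replicate 3, 1 without F5 replicate 2, 64 without F1 replicate 3, 102 without F5 replicate 1, 196 without F1 replicate 2 and 318 without F1 replicate 1. Unscaled library totals gave 132 higher and 201 lower genes (39.6% higher, against 53.4%) and moved the median of all genes to -0.10. The INHA covariate (347), RLE size factors (342), no filter on low counts (317) and limma-voom (389) stayed within 1.5 times of 343. The cause of these differences was not tested.

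In mes100 TCs the count of 571 became 2498 with no fold threshold and 312 to 591 with 1 library left out, the lowest without mes100 F1 replicate 1. With the replicate block it was 598. The interaction with treatment had 0 calls by edgeR, 79 by DESeq2 and 0 to 2 with 1 library left out (2 without NC F1 replicate 2). The interaction with cell layer had 4345 calls and 3036 to 5415 in the alternatives. Among the 66 named genes, 51 passed the test in NC TCs and none of these changed direction in any alternative. Their F1 and F5 libraries did not overlap, so the block or a library left out could not have turned them. Those that changed sign in some had not passed, and STAR, HSD17B1, HSD3B1 and INHA were among them. Of the 51, 41 still passed with the INHA covariate, 44 without F1 replicate 1, 3 in the libraries with little INHA and 0 with the replicate block. By the adjusted p alone the self-test recovered 79.7% of genes changed by a log2 of 3.0, so changes smaller than that can be missed at 3 libraries a stage.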

Other observations

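Genes outside the lists that changed in NC theca were looked through, and those below were chosen after their values were seen and carry no test beyond the one over all genes. C3, the central component of complement, had 7.18, 7.42 and 11.8 FPKM in F1 TCs, against 1.95, 1.69 and 2.86 FPKM in F5 TCs (log2 fold change 2.13 ± 0.29, adjusted p = 0.0182, and 1.99 in mes100 TCs). C7, a part of the membrane attack complex, had 55.1, 37.0 and 33.4 FPKM in F1 TCs, against 15.0, 7.56 and 6.74 FPKM in F5 TCs (2.24 ± 0.37, adjusted p = 0.0287, and 2.62 in mes100 TCs). Both were at most 0.755 FPKM in the mean of NC GCs at either stage.

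KLF15, a transcription factor known in mammals from fasting metabolism, had 10.0, 8.75 and 8.57 FPKM in F1 TCs, against 2.23, 2.26 and 2.56 FPKM in F5 TCs (2.06 ± 0.17, adjusted p = 0.0134). SESN1, a sestrin that restrains mTOR complex 1, had 56.2, 74.6 and 91.0 FPKM in F1 TCs, against 24.9, 18.9 and 20.2 FPKM in F5 TCs (1.90 ± 0.19, adjusted p = 0.0139), and FBXO32, the ubiquitin ligase atrogin, had 77.1, 72.0 and 82.6 FPKM in F1 TCs, against 32.9, 27.9 and 17.1 FPKM in F5 TCs (1.62 ± 0.26, adjusted p = 0.0271). All 3 passed the adjusted p in mes100 TCs (1.73, 1.54 and 1.03).

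Of genes that fell, FABP7, a fatty acid binding protein, had 17.3, 22.3 and 14.1 FPKM in F1 TCs, against 131, 90.4 and 89.0 FPKM in F5 TCs (-2.41 ± 0.24, adjusted p = 0.0139). The fibrillin FBN3 had 10.4, 31.9 and 16.8 FPKM in F1 TCs, against 107, 115 and 65.6 FPKM in F5 TCs (-2.17 ± 0.43, adjusted p = 0.0395), and CYP21A2, the steroid 21-hydroxylase, had 2.21, 3.15 and 2.19 FPKM in F1 TCs, against 9.64, 18.6 and 6.02 FPKM in F5 TCs (-2.07 ± 0.45, adjusted p = 0.0486). The last was lower in mes100 F1 TCs too (-3.90, adjusted p = 0.0123).

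Theca of hens fed 15 mg of the antiandrogen bicalutamide (bic15) enters no comparison here, and 2 of its 3 F1 libraries are of 1 hen. Its CYP17A1 was 967, 891 and 835 FPKM in F1 and 1049, 1365 and 880.4 FPKM in F5, and its CYP19A1 was 0.301, 0.361 and 2.31 FPKM in F1 and 169.7, 34.2 and 27.8 FPKM in F5. In NC the same genes were low in F1 together. STAR of bic15 TCs was 244, 252 and 193 FPKM in F1 and 497, 570.2 and 333 FPKM in F5, with INHA shares of 0.874%, 1.42% and 0.0504% in F1 and of 36.7%, 0.0838% and 0.0348% in F5.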
